A study of Sus scrofa with 16 samples.

Results

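The genes of glycolysis, glycogen turnover and lactate handling were followed across the scar and border zones of pig left ventricle after ischemia/reperfusion (IR) or sham surgery. The set was given as 41 gene symbols, running from the glucose transporters to lactate export, pyruvate entry into mitochondria and glycogen storage. Of these, 36 had a line under their symbol in the expression table and 3 (LDHA, PDHA1 and ALDOA) were found under their Ensembl identifiers, so 39 genes were measured out of 22629 in the table. The glucose transporters SLC2A1 and SLC2A3 were not analysed here. RNA sequencing covered 16 left ventricular samples from 8 White Yorkshire-Landrace farm pigs, 4 with IR and 4 with sham surgery, each giving 1 scar zone and 1 border zone sample. IR was made in pigs aged 30 days by closing the left anterior descending coronary artery for 1 h and reopening it. Sham pigs had the chest opened and a suture placed without closing the artery. Heparin is reported for the IR pigs and not mentioned for sham pigs. Tissue was taken 4 weeks after surgery. Each surgery group held 2 females (IR pigs 2 and 14, sham pigs 4 and 5) and 2 males (IR pigs 9 and 11, sham pigs 12 and 13). The scar zone of IR pigs was a block of tissue below the occlusion site that also held neighbouring myocardium, and the piece called scar zone in sham pigs came from the suture site itself, in hearts that had been operated on but not made ischemic.

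Glycolysis splits glucose into pyruvate in the cytosol and yields a little ATP without oxygen. Pyruvate is either reduced to lactate by lactate dehydrogenase or carried into mitochondria and oxidised by pyruvate dehydrogenase, which pyruvate dehydrogenase kinases switch off. The healthy postnatal heart draws mainly on fatty acids, while glycolysis and stored glycogen take a larger share of fuel supply in the fetal heart and when oxygen is short. Several steps have a striated muscle isoform and a more widely expressed one, among them phosphofructokinase (PFKM and PFKP), phosphoglycerate mutase (PGAM2 and PGAM1) and enolase (ENO3 and ENO1).

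Total estimated counts ran from 15427663 to 49045206 per sample, with the 4 samples of the male IR pigs the deepest. The cardiomyocyte markers were high in every sample, with 11 of 14 measured and their summed level at 75438 to 99513 TPM (a level per transcript length, scaled to the same sum in each sample). The 10 fibroblast and matrix markers split the IR scar samples by sex. Their summed level was 10413 TPM in pig 9 and 10387 TPM in pig 11, both male, against 1820 TPM in pig 2 and 1407 TPM in pig 14, both female, and 1798 to 2478 TPM in sham scar zone. The scar zone samples of the female IR pigs were therefore within or below the sham range in matrix markers. The summed level of the 10 leucocyte markers was 252 and 129 TPM in the male IR scar samples and 50.3 and 56.8 TPM in the female ones, against 33.6 to 82.4 TPM in sham scar zone. Markers specific to skeletal muscle reached at most 2.62 TPM (TNNC2), except CKM, which the heart also uses, and the adipocyte markers ADIPOQ, PLIN1, LEP and CIDEC reached at most 1.27 TPM, except LPL, which heart muscle also makes, at 302 to 611 TPM. The Y-linked gene DDX3Y was at 4.48 CPM (counts scaled to library size, here by edgeR's TMM method) in the scar zone sample of female IR pig 14, against 0.389 to 1.23 CPM in the other female samples and 68.4 to 103 CPM in the males.

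The 39 genes together made up a large and similar share of the transcripts in each group. Their summed level was 15253 ± 1846 TPM in IR scar zone and 15251 ± 1880 TPM in sham scar zone (SD, n = 4 each), and 15436 ± 1638 TPM in IR border zone and 14982 ± 1303 TPM in sham border zone. GAPDH, the dehydrogenase of the pathway's middle step, was by far the most abundant at 6249 ± 864 TPM over the 16 samples. ENO3 followed at 1777 ± 210 TPM, the aldolase ALDOA at 1631 ± 264 TPM, the pyruvate kinase gene PKM at 879 ± 113 TPM, the triosephosphate isomerase TPI1 at 656 ± 131 TPM and the mitochondrial pyruvate carrier subunit MPC1 at 650.2 ± 124 TPM. The lowest were LDHB at 0.644 ± 0.392 TPM and PFKFB1, an isoform of the enzyme that makes the phosphofructokinase activator, at 0.281 ± 0.124 TPM.

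**Figure D1:**
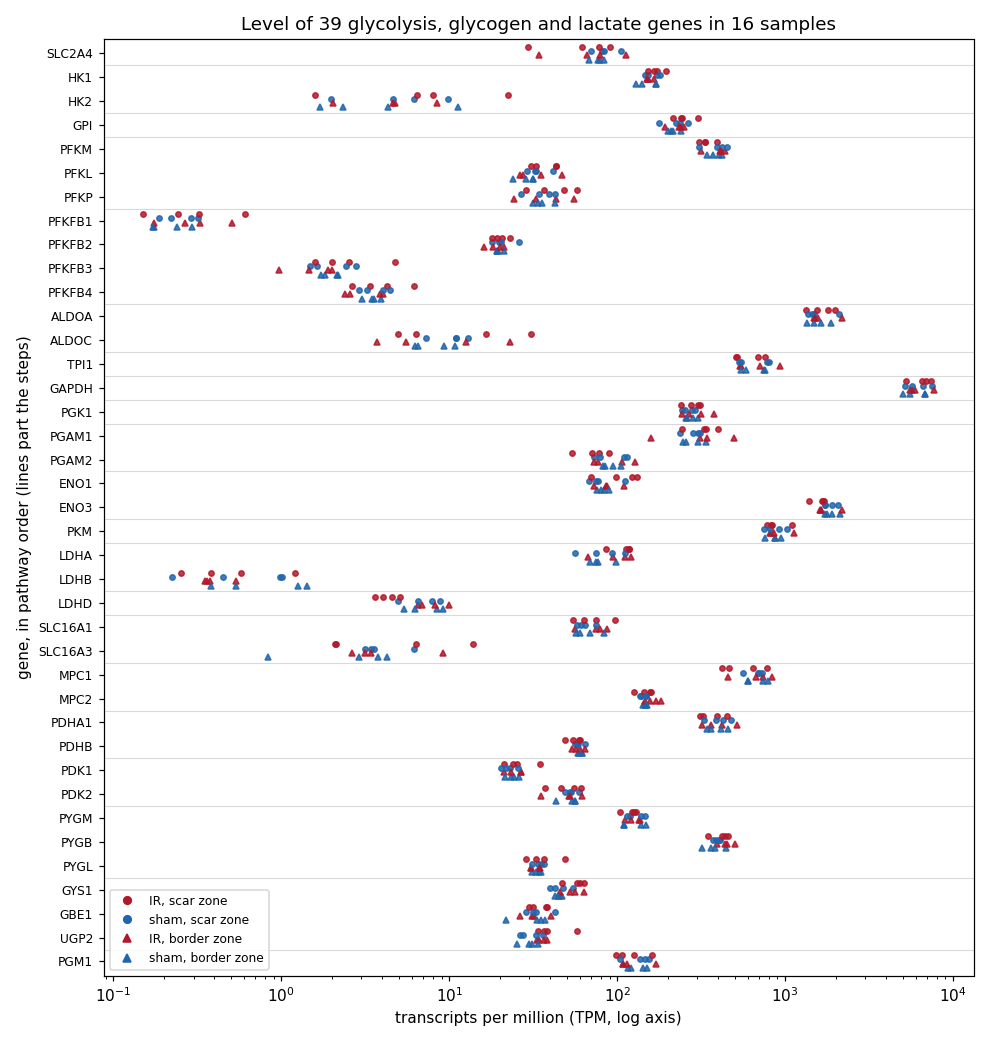
Level of each of the 39 measured genes in the 16 samples, in pathway order from glucose uptake (top) to phosphoglucomutase (bottom). The horizontal axis is TPM on a log scale, each point is 1 sample (circle scar zone, triangle border zone, red IR, blue sham), and the 4 groups overlie each other for nearly all genes, while levels between genes run from PFKFB1 at 0.281 TPM to GAPDH at 6249 TPM on average.

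The share of each isoform in the TPM of its step, averaged over the 16 samples, showed how evenly the steps were divided. HK1, the hexokinase isoform of most tissues, made up 96.3% ± 2.74 of the hexokinase transcripts and the insulin-responsive isoform HK2 3.67%. ALDOA made up 99.3% of aldolase against ALDOC, the muscle enolase ENO3 95.1% ± 1.37, the muscle phosphofructokinase PFKM 83.9% ± 3.78, and the lactate and pyruvate transporter SLC16A1 93.8% ± 4.93 against its glycolytic-cell counterpart SLC16A3. For phosphoglycerate mutase the muscle isoform was in the minority, with PGAM2 at 23.2% ± 7.50 and PGAM1 at 76.8%. Glycogen phosphorylase, which releases glucose from glycogen, was led by the brain isoform PYGB at 71.7% ± 2.81, ahead of the muscle isoform PYGM at 22.2% and the liver isoform PYGL at 6.06%. The kinase PDK2 made up 67.7% of the 2 pyruvate dehydrogenase kinases in the set, PDK1 the rest.

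The lactate dehydrogenase pair carried a limit of its own. LDHB is known as the main subunit of heart lactate dehydrogenase, yet its line in the table held only 4.85 to 27.4 estimated counts per sample and 0.714% of the transcripts of the pair. The line did not pass the filter on low counts in either zone, and what part of the LDHB transcripts it holds was not tested. Values that rest on LDHB are therefore given for that line only.

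The first comparison asked which genes of the set differed between IR and sham in the scar zone, where the artery's territory had been ischemic. The gene with the smallest p was LDHD, the mitochondrial D-lactate dehydrogenase, which was lower in IR. LDHD stood at 5.74, 7.61, 5.40 and 5.60 TMM-scaled CPM in IR pigs 2, 14, 9 and 11 and at 13.1, 8.54, 12.3 and 10.9 in sham pigs 4, 5, 12 and 13, the order used for all lists of values here. All 4 IR samples lay below all 4 sham samples on this scale, the only one of 38 tested genes of the set to do so (2.85% of all genes did, and 2.03% lay above), whereas in TPM the highest IR sample (5.08) just passed the lowest sham sample (4.96). The log2 fold change was −0.88 ± 0.19 (SE), with an unadjusted p of 0.000966 and an adjusted p of 0.44 in edgeR's quasi-likelihood test. It stayed between −1.004 and −0.80 when each pig was left out, and in DESeq2 its adjusted p was 0.00875, the only gene of the set under 0.05 there, as 0.535% of all genes were. As in all of these bulk samples, fewer cells of a type and less RNA per cell cannot be told apart.

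PGAM2 and PGM1 were the other genes that passed an unadjusted p of 0.05 (called, in what follows) in the scar zone, and both were also lower in IR. PGAM2, the muscle phosphoglycerate mutase, stood at 233, 197, 136 and 125 CPM in IR and 282, 308, 204 and 202 CPM in sham. The 2 lowest were the male IR pigs, and the groups overlapped. Its log2 fold change was −0.53 ± 0.23 (adjusted p = 0.45, edgeR), and 5 of the 8 fits that each left out 1 sample lost the call. PGM1, which joins glycogen to glycolysis by moving the phosphate of glucose, stood at 238, 201, 203 and 181 CPM in IR and 263, 318, 258 and 209 CPM in sham, with a log2 fold change of −0.35 ± 0.15 (adjusted p = 0.44, edgeR). Its IR and sham values overlapped through sham pig 13, and 6 of the 8 fits that each left out 1 sample lost the call.

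In all, 3 of 38 genes were called lower and 0 higher, where 4.64% of all 14023 genes tested were called lower and 6.57% higher (11.2% in either direction). No gene of the set, and no gene of the table, passed an adjusted p of 0.05 with a fold change of 2 in edgeR. The estimates leaned downward, with 24 negative and 14 positive and a median log2 fold change of −0.09 against 0.03 over all genes tested. With single samples left out the median of the set ran from −0.22 (without IR pig 2) to −0.05 (without IR pig 11). Without pig 2, 31 estimates were negative and 7 positive, and without pig 11, 23 were negative and 16 positive. This lean depended on the scale, since on log2(TPM + 1) with limma 24 estimates were positive and 13 negative, with a median of 0.07 against 0.15 over all genes, and 1 of 37 genes was called lower and 0 higher, where 1.44% and 6.66% of all genes were. In the edgeR fit 10 of 10 matrix markers had positive estimates (median 0.94, 4 called) and 7 of 11 cardiomyocyte markers negative ones (median −0.26, 0 called), and their part in the lean was not tested.

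The next genes by p kept mostly to the same direction without passing the test. ENO3, the muscle enolase, stood at 2295, 2326, 1475 and 1629 CPM in IR and 2395, 2984, 2208 and 2429.6 CPM in sham (log2 fold change −0.37 ± 0.19, adjusted p = 0.483, edgeR). PFKM, which commits sugar to glycolysis, stood at 787, 843, 490.5 and 830.2 CPM in IR and 999.8, 1079.9, 919.7 and 773 CPM in sham (−0.35 ± 0.19, adjusted p = 0.493). Both had their lowest sample in male IR pig 9 on this scale. In TPM, ENO3 was the only gene of the set with every IR sample below every sham sample in the scar zone, at 1383 to 1695 TPM against 1720 to 2075 TPM, where 0.628% of all genes lay below and 3.42% above. PYGM stood at 324, 278, 214 and 274 CPM in IR and 282, 401, 345 and 303 CPM in sham, with overlapping groups (−0.29 ± 0.16, adjusted p = 0.50). LDHA, the subunit that favours lactate formation, was the only one of these with a positive estimate, at 140.5, 164, 76.5 and 136 CPM in IR and 115, 89.3, 116 and 75.9 CPM in sham (0.39 ± 0.23, adjusted p = 0.517). Here 3 IR samples lay above every sham sample and pig 9 lay among them. MPC1 stood at 108, 91.7, 41.9 and 50.4 CPM in IR and 103, 92.5, 102 and 97.9 CPM in sham (−0.44 ± 0.28, adjusted p = 0.524) and was lowest in the 2 male IR pigs. The wider isoforms did not pass the test, with ENO1 at 153, 115, 138 and 168 CPM in IR against 163, 127, 118 and 113 in sham, PGAM1 at 649, 584, 267 and 477 against 468, 416, 456 and 525, and PFKP at 119, 62.98, 66.2 and 67.5 against 75.9, 75.9, 54.1 and 92.3. For all 3 the IR and sham values overlapped.

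**Figure D2:**
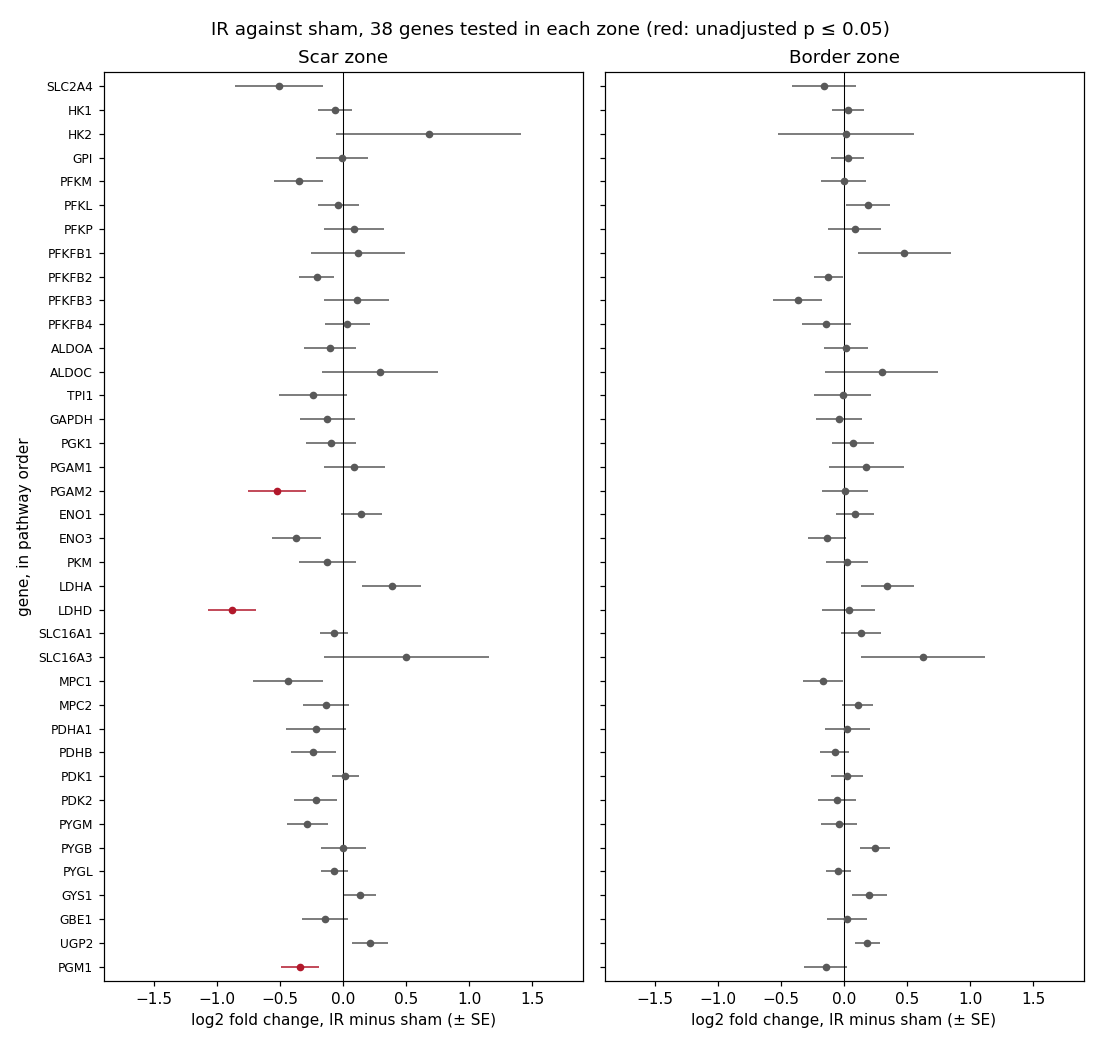
Log2 fold change of IR against sham for the 38 tested genes, in pathway order, in the scar zone (left) and the border zone (right). Points are edgeR estimates on TMM-scaled counts, bars are ± SE, and red marks an unadjusted p of at most 0.05. LDHD, PGAM2 and PGM1 are red in the scar zone at −0.88, −0.53 and −0.35, and no gene is red in the border zone.

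In the border zone, the myocardium next to the scar zone, no gene of the set was called. The count at an unadjusted p of 0.05 was 0 of 38 in edgeR, where 3.78% of all 13728 genes tested were called in either direction (2.09% higher and 1.69% lower), and DESeq2 called 2 higher at that p, as it did 2.64% of all genes, and 0 after adjustment. The smallest p belonged to glycogen genes with positive estimates. PYGB stood at 1592, 1507, 1629.5 and 1556 CPM in IR and 1210.4, 1235, 1462 and 1392 CPM in sham (log2 fold change 0.24 ± 0.12, adjusted p = 0.988). UGP2, which makes the activated glucose for glycogen synthesis, stood at 74.4, 77.2, 77.4 and 80.6 CPM in IR and 64.9, 68.2, 70.3 and 68.5 CPM in sham (0.19 ± 0.10, adjusted p = 0.988). Of the 38 genes, these 2 had every IR sample above every sham sample on this scale, against 0.838% of all genes, with 1.22% below. In TPM the groups of every gene of the set overlapped in the border zone, where 1.17% of all genes lay above and 0.561% below. GYS1, the muscle glycogen synthase, stood at 321, 278, 243 and 309 CPM in IR and 289.8, 246, 231 and 233 CPM in sham, with pigs 14 and 9 within the sham range (0.20 ± 0.14, adjusted p = 0.988).

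PFKFB3, an inducible form of the enzyme that activates phosphofructokinase, had the lowest estimate in the border zone, at 7.24, 5.49, 6.74 and 4.17 CPM in IR and 7.68, 6.94, 7.58 and 8.20 CPM in sham (−0.37 ± 0.20, adjusted p = 0.988, edgeR). LDHA stood at 139.9, 154, 78.6 and 136 CPM in IR and 127, 89.2, 93.6 and 90.7 CPM in sham, again with 3 IR samples above all sham samples and pig 9 below them (0.34 ± 0.21, adjusted p = 0.988). SLC16A3, a lactate exporter of glycolytic cells, stood at 16.2, 5.20, 5.45 and 5.05 CPM in IR, where pig 2 was alone at the top, and 1.65, 5.16, 7.09 and 6.61 CPM in sham (0.63 ± 0.49, adjusted p = 0.988). PFKL, the liver phosphofructokinase, stood at 107, 60.5, 74.8 and 69.7 CPM in IR and 61.6, 75.3, 69.9 and 65.8 CPM in sham (0.19 ± 0.17, adjusted p = 0.988). PFKFB1 stood at 1.40, 2.16, 1.06 and 0.835 CPM in IR and 0.826, 1.28, 0.972 and 0.754 CPM in sham (0.48 ± 0.37, adjusted p = 0.988). The IR and sham values of all of these overlapped. Of the estimates of the whole set 24 were positive and 14 negative, with a median of 0.02 against 2.7e-05 over all genes tested.

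The zones of the same heart were then compared, since each pig gave both. LDHD was lower in scar than in border zone in all 4 IR pigs, falling from 10.2, 12.9, 14.3 and 11.99 to 5.74, 7.61, 5.40 and 5.60 CPM. In sham pigs it went from 16.4, 9.04, 9.38 and 13.2 to 13.1, 8.54, 12.3 and 10.9 CPM, down in 3 pigs and up in 1. The scar minus border difference was −1.02 ± 0.20 on the log2 scale in IR pigs (adjusted p = 0.43, edgeR) and −0.11 ± 0.20 in sham pigs (adjusted p = 1.0). The difference between these was itself tested, at −0.91 ± 0.28 (adjusted p = 1.00, edgeR), the only call among 39 genes, where 0.259% of all genes were called lower, 1.96% higher and 2.22% in either direction. With the pig as a block, which the shared animal calls for, this difference was −0.94 ± 0.21 (adjusted p = 0.70).

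Within IR pigs, the fit without the pig called 1 gene of the set higher in scar than in border zone (PFKFB3) and 2 lower (LDHD and PGAM2), where 5.51% of all genes were called higher and 1.39% lower (6.91% in either direction). With the pig as a block it called 2 higher and 9 lower of 39, or 11 in all, against 10.2% and 7.76% of all genes (18.0% in either direction). The 9 were LDHD (−1.03 ± 0.15), PGAM2 (−0.53 ± 0.17), MPC1 (−0.37 ± 0.15), PFKM (−0.35 ± 0.10), MPC2 (−0.32 ± 0.11), PDHA1 (−0.28 ± 0.11), TPI1 (−0.27 ± 0.10), SLC16A1 (−0.27 ± 0.09) and PGK1 (−0.24 ± 0.11), all log2 differences with an unadjusted p under 0.05 and an adjusted p of at least 0.15. They include glycolytic enzymes, a lactate transporter and genes of pyruvate entry and oxidation in mitochondria. The 2 higher were PFKFB3 (0.57 ± 0.18) and PFKFB4 (0.23 ± 0.09), both isoforms of the regulatory enzyme. PFKFB3 rose from 7.24, 5.49, 6.74 and 4.17 CPM in border to 7.69, 6.39, 11.98 and 8.46 CPM in scar zone of the IR pigs, upward in 4 of 4. Without the block, its call and that of PGAM2 were each lost in 2 of the fits that left out 1 pig, and that of LDHD in none. In DESeq2 without the block, LDHD passed an adjusted p of 0.05 with a fold change of 2, as 0.168% of all genes did.

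Sham pigs gave no call between the zones, with 0 of 39 in edgeR with and without the pig as a block (with the block 2.75% of all genes were called, 1.41% higher and 1.34% lower, and without it 0.420%, 0.147% higher and 0.273% lower) and 0 in DESeq2. Testing how far the IR effect in scar zone departed from that in border zone, the block called 3 genes, all lower in the scar zone: LDHD, PGAM2 (−0.54 ± 0.23, adjusted p = 0.702) and PFKM (−0.36 ± 0.14, adjusted p = 0.702), where 2.75% of all genes were called lower, 4.24% higher and 6.99% in either direction. Both PGAM2 and PFKM are the muscle isoforms of their steps. Matrix markers moved with the contrast of scar and border zone in IR pigs, with positive estimates for 10 of 10 markers of that list and 8 of them called, at a median log2 difference of 1.08, and all 11 cardiomyocyte markers had negative estimates (median −0.26, 0 called). Their part in the fall of the 9 genes was not tested.

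**Figure D3:**
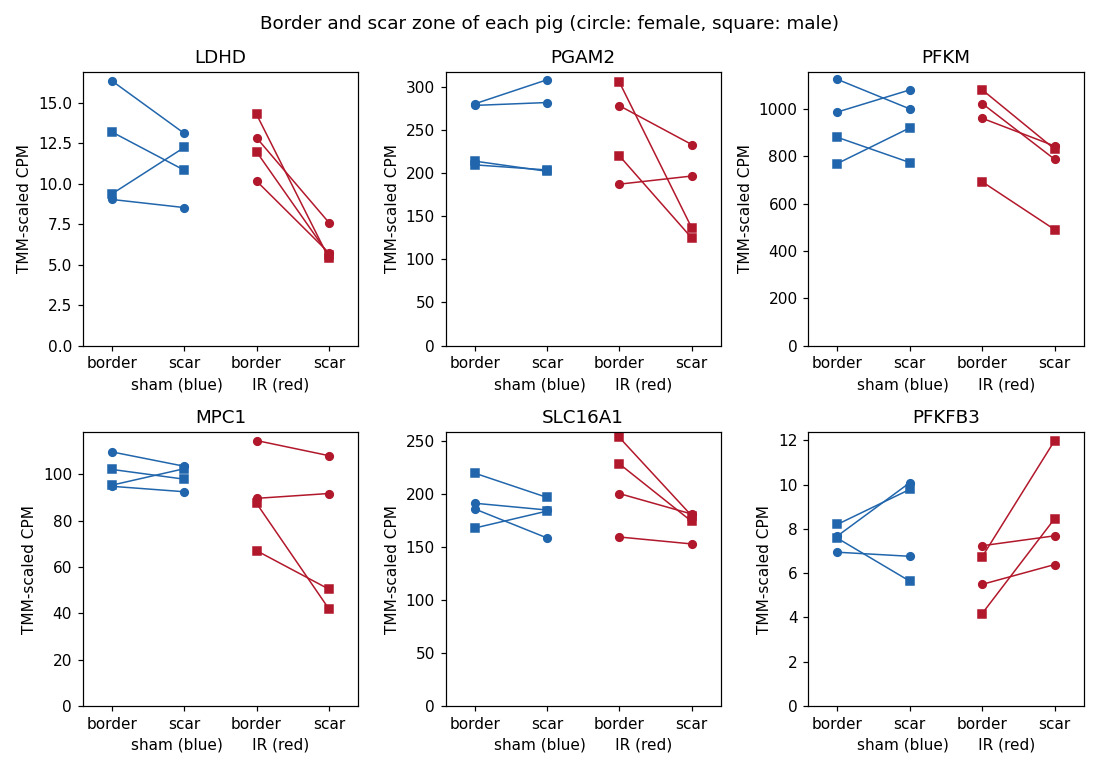
TMM-scaled CPM of 6 genes in the border and scar zone of each pig, with a line joining the samples of 1 animal (blue sham, red IR, circle female, square male). LDHD falls from border to scar in all 4 IR pigs, from 10.2 to 14.3 CPM down to 5.40 to 7.61 CPM, PFKFB3 rises in all 4, and the sham lines go in both directions.

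The isoform pairs were compared as log2 ratios of TPM within a sample, which do not depend on how libraries were scaled. All 3 muscle-to-ubiquitous ratios had lower means in IR than in sham scar zone, but none passed an exact permutation test of 4 pigs against 4 (two-sided, smallest possible p 0.0286). ENO3 to ENO1 was 16.2 ± 5.75 in IR and 23.2 ± 4.53 in sham scar zone as a plain ratio (SD, n = 4), a log2 difference of −0.55 (exact p = 0.114). PGAM2 to PGAM1 was 0.230 ± 0.0655 in IR and 0.338 ± 0.0976 in sham, also a log2 difference of −0.55 (exact p = 0.114). In each of these pairs 3 of 4 IR pigs lay below all sham pigs. PFKM to PFKP was 8.61 ± 2.95 and 11.4 ± 3.12, a log2 difference of −0.42 (exact p = 0.200), with 2 IR pigs below all sham pigs. With 1 pig left out, the log2 difference ran from −0.76 to −0.40 for ENO3 to ENO1 and from −0.73 to −0.39 for PGAM2 to PGAM1. For PFKM to PFKP it ran from −0.63 to −0.26.

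In the border zone the same log2 differences were −0.20 for enolase (exact p = 0.343), −0.06 for phosphoglycerate mutase (exact p = 0.914) and −0.04 for phosphofructokinase (exact p = 0.886). The mutase ratio of male IR pig 9 was 0.806 in border zone, far above 0.212 to 0.245 in the other 3 IR border samples. The ratio of the LDHB line to LDHA had a log2 difference of −0.55 in scar zone (exact p = 0.429) and −1.23 in border zone (exact p = 0.0857), and rests on a few counts of LDHB. After adjustment over the 8 tests the smallest p was 0.305. The change of the ratio from border to scar zone did not differ detectably between IR and sham pigs for any pair, with log2 differences of −0.39, −0.50, −0.35 and 0.68 for phosphofructokinase, mutase, enolase and lactate dehydrogenase and exact p from 0.143 to 0.371.

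**Figure D4:**
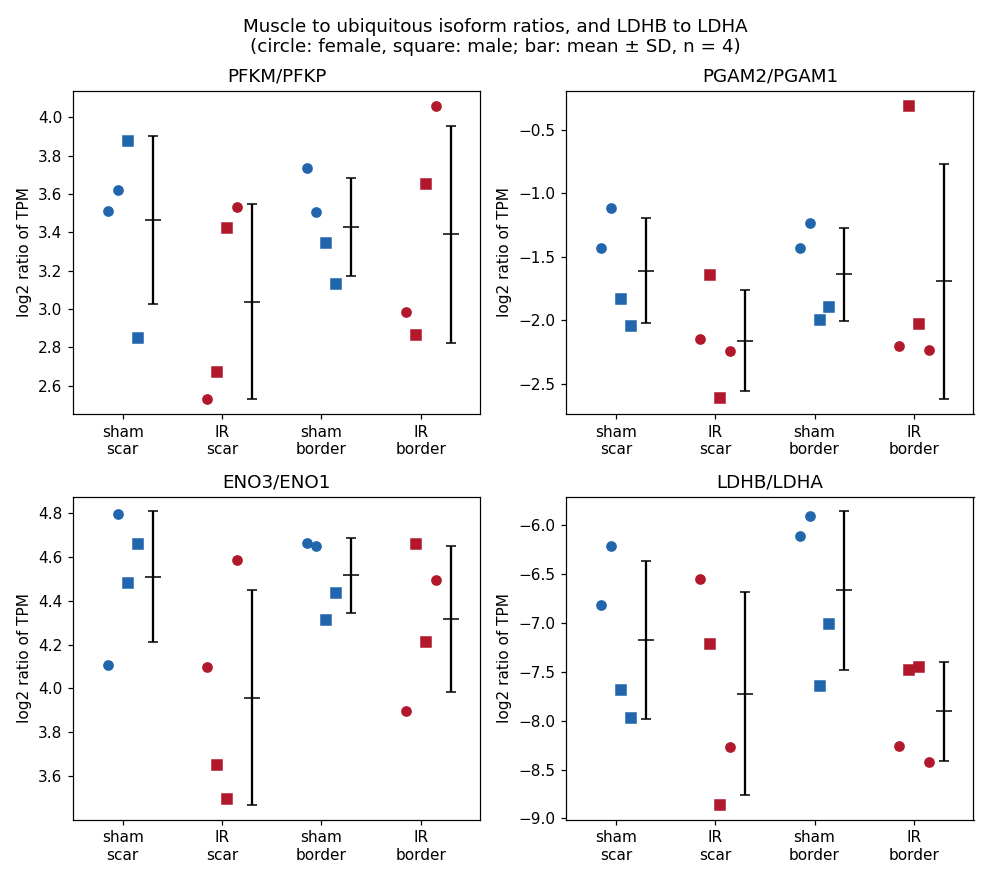
Log2 ratio of TPM for the 4 isoform pairs in each sample (circle female, square male, red IR, blue sham), with the mean ± SD of each group of 4 as a black bar. The 3 muscle-to-ubiquitous ratios have lower means in IR than in sham scar zone, by 0.42 to 0.55 on the log2 scale, and the points of both groups overlap in every panel.

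The IR effect in the scar zone also differed between the sexes for part of the set. The interaction of surgery and sex called 12 of 38 genes, all with a lower IR effect (IR minus sham) in males than in females. By the same test 9.06% of all genes were called lower, 9.62% higher and 18.7% in either direction. In the set 32 of 38 estimates were negative (median −0.36 against −0.0012 over all genes), a lean that turned in TPM as given below. Each sex and surgery rests on 2 pigs, so sex cannot be told apart from other differences between those animals. MPC1 alone passed an adjusted p of 0.05 with a fold change of 2, as 1.50% of all genes did. That count was 4 of 38 in DESeq2, where 5.05% of all genes passed, 1 without IR pig 9 or IR pig 11, and 0 without any of the other 6 pigs, where the smallest adjusted p of the set was 0.0702 to 0.168. Over all genes the share passing also fell, to 0.874% and 1.13% without IR pig 9 or 11, and to between 0.00705% and 0.969% without any of the other 6, lowest without sham pig 12 or 13. MPC1 stood at 41.9 and 50.4 CPM in the male IR pigs against 97.9 and 102 CPM in male sham, and in females at 108 and 91.7 CPM with IR and 103 and 92.5 CPM with sham (interaction −1.14 ± 0.22, adjusted p = 0.048, edgeR).

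Among the transporters, SLC2A4, the insulin-responsive glucose transporter, stood at 204, 187, 92.8 and 58.1 CPM in IR and 224, 170.1, 187 and 192 CPM in sham scar zone (interaction −1.31 ± 0.33, adjusted p = 0.092). Of the genes of pyruvate entry and oxidation in mitochondria, MPC2 stood at 159, 172, 98.5 and 112 CPM in IR and 133, 153, 150.0 and 160.1 CPM in sham (−0.76 ± 0.19, adjusted p = 0.0955), and PDHB, the pyruvate dehydrogenase beta subunit, at 288, 301, 176 and 208 CPM in IR and 259, 291, 301 and 298 CPM in sham (−0.73 ± 0.19, adjusted p = 0.0996). In SLC2A4, MPC1, MPC2 and PDHB the male IR samples were the 2 lowest of the 8. The other subunit gene, PDHA1, had an interaction of −0.57 ± 0.23 (adjusted p = 0.235). Among glycogen genes PYGB (−0.74 ± 0.18, adjusted p = 0.0904) and the branching enzyme GBE1 (−0.74 ± 0.27, adjusted p = 0.202) were called, and among glycolytic enzymes PGAM1 (−0.88 ± 0.35, adjusted p = 0.234) and PGK1 (−0.68 ± 0.26, adjusted p = 0.212). Leaving out single samples cost PDHA1 and PGAM1 the call in 6 of 8 fits, PGK1 in 5, GBE1 in 4 and HK2 in 1 (without IR pig 2, at −2.47), while MPC1, SLC16A3, SLC2A4, MPC2, PDHB, PYGB and ALDOC kept it in all 8.

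The other 3 of the 12, SLC16A3, HK2 and ALDOC, were called higher in IR than in sham females. SLC16A3 stood at 24.4, 11.8, 2.47 and 3.22 CPM in IR and 5.41, 6.85, 5.53 and 11.5 CPM in sham scar zone (interaction −3.14 ± 0.62, adjusted p = 0.054). HK2 stood at 99.6, 38.04, 19.3 and 6.31 CPM in IR and 25.8, 9.45, 20.2 and 46.6 CPM in sham (−3.34 ± 1.01, adjusted p = 0.141), and ALDOC at 47.03, 31.1, 8.77 and 13.96 CPM in IR and 20.9, 24.1, 23.7 and 13.5 CPM in sham (−1.51 ± 0.46, adjusted p = 0.144). Female IR pig 2 was the highest sample for all 3. Within females of the same fit, IR against sham was 1.56 ± 0.44 for SLC16A3, 1.97 ± 0.72 for HK2 and 0.80 ± 0.33 for ALDOC on the log2 scale, and within males −1.58 ± 0.44, −1.37 ± 0.71 and −0.71 ± 0.33.

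Within males, IR scar zone was called lower than sham in 15 of 38 genes and higher in 0, where 11.6% of all genes were called lower and 13.2% higher. MPC1 (−1.11 ± 0.15, adjusted p = 0.010), SLC2A4 (−1.32 ± 0.23, adjusted p = 0.019), PDHB (−0.64 ± 0.14, adjusted p = 0.033), PGAM2 (−0.63 ± 0.14, adjusted p = 0.038) and LDHD (−1.07 ± 0.25, adjusted p = 0.043) passed an adjusted p of 0.05, as 7.44% of all genes did at any fold. Within females 3 were called lower and 5 higher, where 5.83% and 7.05% of all genes were. The 3 were LDHD (−0.70 ± 0.26), PGAM2 (−0.46 ± 0.14) and PGM1 (−0.40 ± 0.17), and the smallest adjusted p was 0.25. In limma on log2(TPM + 1) females had 3 of 37 called lower (LDHD, PGAM2 and PFKM) and 4 higher, against 4.66% and 4.19% of all genes. LDHD and PGAM2 were thus called lower within each sex in scaled counts, with interactions of −0.36 ± 0.36 (adjusted p = 0.642) and −0.17 ± 0.20 (adjusted p = 0.695).

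The male values depended on the scale. In TPM, the median of all genes in the male scar comparison was shifted upward by 0.33 on the log2 scale, and the median of the set was −0.0028, whereas in scaled counts the medians were 0.01 for all genes and −0.36 for the set. Within males limma on log2(TPM + 1) called 4 of 37 genes lower (MPC1, SLC2A4, SLC16A3 and ALDOC) and 2 higher (ENO1 and GYS1), where 2.15% of all genes were called lower and 28.7% higher, with 19 negative and 18 positive estimates. Of the 37, MPC1 and ENO1 passed an adjusted p of 0.05, a smaller share than the 11.6% of all genes that did, and neither LDHD nor PGAM2 was called in males. Tested on log2(TPM + 1) with limma, the interaction called 4 genes lower (HK2, ALDOC, SLC16A3 and MPC1, at −2.49, −1.68, −2.03 and −0.79) and 3 higher (ENO1, PYGL and GYS1, at 0.93, 0.61 and 0.53), where 1.73% of all genes were called lower and 20.0% higher. In that fit 25 estimates of the set were positive and 12 negative, with a median of 0.08 against 0.38 over all genes, and SLC16A3 in place of MPC1 passed an adjusted p of 0.05 with a fold change of 2, as 3.56% of all genes did. The other 8 genes of the 12 kept a negative estimate there, from −0.90 for SLC2A4 to −0.08 for PDHA1, and lost the call. The male IR scar samples were also those with matrix marker sums of 10387 and 10413 TPM. In the same interaction 10 of 10 matrix markers had positive estimates, 9 of them called (median 2.43), and 4 of 11 cardiomyocyte markers were called lower, the largest being PLN at −1.81 ± 0.25. The part of these markers in the 12 calls was not tested.

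The border zone of the same pigs, where matrix marker sums were 1790 to 2197 TPM in IR and 1483 to 2315 TPM in sham, gave part of the pattern. Of 38 genes 3 were called lower in the border zone interaction and 3 higher, against 3.85% and 3.04% of all genes (6.89% in either direction). The 3 lower were HK2 (−2.77 ± 0.70, adjusted p = 0.556), ALDOC (−1.46 ± 0.45, adjusted p = 0.645) and SLC16A3 (−2.04 ± 0.83, adjusted p = 0.70). These 3 were among the 5 genes called higher with IR in females in the scar zone, measured again in the same animals. Without IR pig 2 the estimate of SLC16A3 was −0.997, and its call was lost in 6 of 8 fits that left out 1 sample, while HK2 and ALDOC kept theirs in all 8. MPC1 (−0.36 ± 0.28, adjusted p = 0.832), PDHB (−0.07 ± 0.23, adjusted p = 0.967) and SLC2A4 (0.00 ± 0.55, adjusted p = 1.0) did not pass there. The 3 with a higher IR effect in males were PGM1 (0.77 ± 0.25), GAPDH (0.72 ± 0.25) and ALDOA (0.69 ± 0.27). Each had its highest IR border sample in TPM in pig 9. Left-out samples cost ALDOA the call in 6 fits and GAPDH and PGM1 in 2 each. In limma on log2(TPM + 1) these 3 calls were lost, with 0 genes called higher and 4 lower (HK2, ALDOC, SLC16A3 and PGAM1), against 1.19% and 5.61% of all genes. No border zone interaction of the set passed an adjusted p of 0.05, the smallest being 0.56, where 0.0146% of all genes passed it with a fold change of 2. Within border zone, females had 3 genes called higher with IR (HK2, SLC16A3 and ALDOC) and 2 lower (PGM1 and ENO3), against 4.30% and 3.21% of all genes, and males had 0 higher and 1 lower (HK2), against 2.17% and 2.64%. In limma on log2(TPM + 1) females had 6 of 37 called higher (the same 3 with PGK1, PGAM1 and GYS1) and 0 lower, against 7.09% and 1.30% of all genes, and males had 0 called, against 1.64% higher and 2.18% lower.

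**Figure D5:**
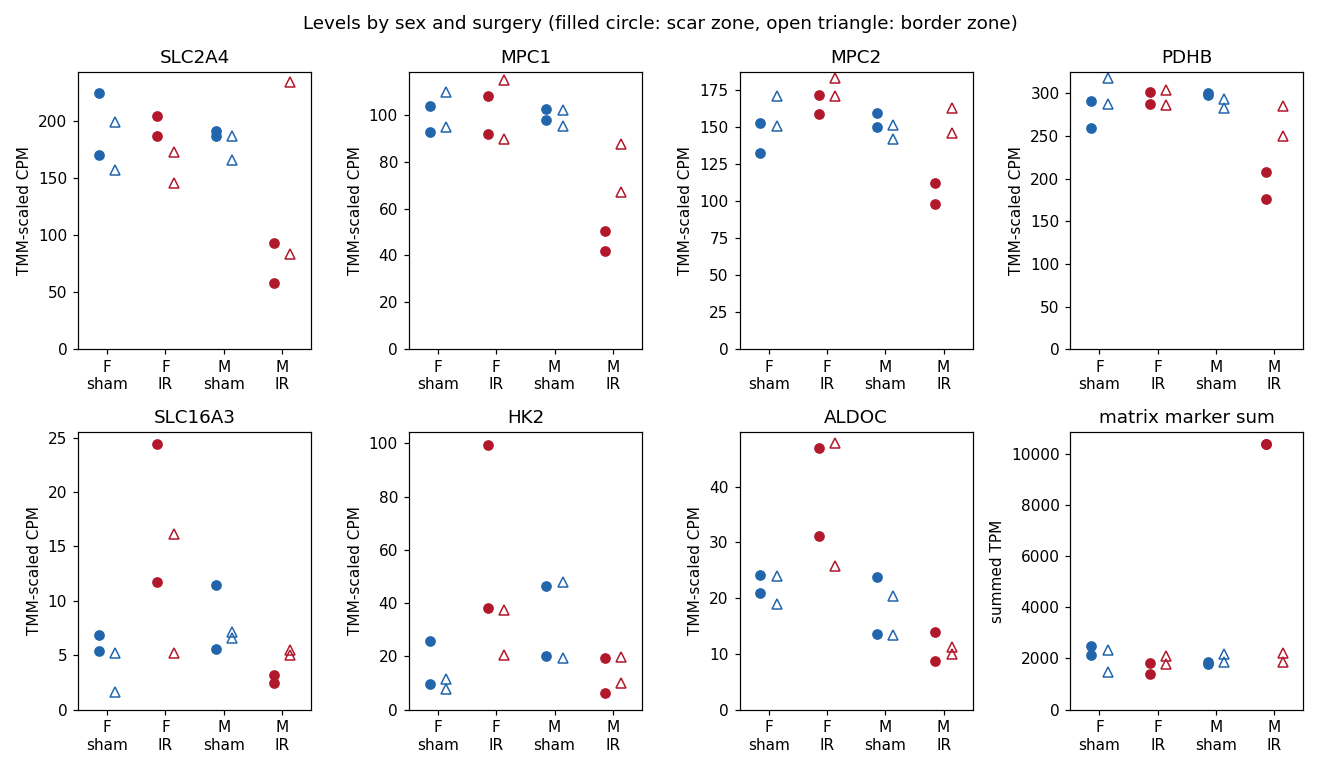
TMM-scaled CPM of 7 genes, and the summed TPM of 10 fibroblast and matrix markers (last panel), by sex (F, M) and surgery, with 2 pigs per column (filled circle scar zone, open triangle border zone). Among scar zone samples SLC2A4, MPC1, MPC2 and PDHB are lowest in the male IR pigs, SLC16A3, HK2 and ALDOC are highest in a female IR pig, and the matrix sum is 10387 and 10413 TPM in the male IR scar samples and at most 2478 TPM in all others.

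Other genes of these pathways, fixed as a list of 63 with 59 in the table, were also tested. In the scar zone 5 of 48 tested genes were called, 1 higher and 4 lower, where 11.2% of all genes were called in either direction (6.57% higher and 4.64% lower). That count was 14 of 51 without IR pig 14 and 11 of 50 without IR pig 2, against 16.7% and 18.2% of all genes. It was 4 to 6 without any other pig, against 5.61% to 11.2%. Limma on log2(TPM + 1) called 2 of 43 higher and 2 lower, where 6.66% and 1.44% of all genes were. HK3, the hexokinase of leucocytes, was higher (1.08 ± 0.32, adjusted p = 0.438), and 9 of 9 tested leucocyte markers also had positive estimates in this comparison (median 0.43, 1 called), whose part in it was not tested. Lower were PPP1R3D (−1.10 ± 0.30, adjusted p = 0.438) and PPP1R3A (−0.44 ± 0.19, adjusted p = 0.438), which bring protein phosphatase to glycogen, PGM5, a relative of PGM1 at cell junctions (−0.47 ± 0.15, adjusted p = 0.438), and PDP1, the phosphatase that switches pyruvate dehydrogenase back on (−0.44 ± 0.12, adjusted p = 0.438). In the border zone 0 of 49 were called in edgeR and in DESeq2, where 3.78% and 4.35% of all genes were. With single samples left out 0 to 3 were called, where 1.92% to 6.94% of all genes were. Between zones of IR pigs 1 of 50 was called, and 12 with the pig as a block (5 higher and 7 lower), against 6.91% and 18.0% of all genes. For the departure of the scar zone effect from the border zone effect the count was 0, and 7 with the block, against 2.22% and 6.99%, and between zones of sham pigs it was 0, and 1 with the block, against 0.420% and 2.75%. In the sex interaction of the scar zone 7 of 48 were called lower and 5 higher, where 9.06% and 9.62% of all genes were, with an adjusted p of at least 0.059 in edgeR. The median estimate of this list in that interaction was −0.158 on the log2 scale. Leaving out a sample leaves 1 pig in a group of sex and surgery, so only the estimates are given. Their median then ran from −0.159 (without IR pig 11) to −0.015 (without IR pig 14). Limma on log2(TPM + 1) called 3 lower and 9 higher of 43, where 1.73% and 20.0% of all genes were. In DESeq2 4 of 48 passed an adjusted p of 0.05 with a fold change of 2, as 5.05% of all genes did.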

How the data were processed

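Stranded mRNA libraries of 16 samples were sequenced by the authors, trimmed with Trimmomatic 0.33, aligned with HISAT2 2.0.5 and quantified with kallisto 0.43.1 on Ensembl pig cDNA. The genome build is not given in the sources used here. The deposited estimated counts and the deposited TPM values per gene, both from kallisto, were used as the authors gave them. Gene lines were matched by symbol or, for 3 genes, by Ensembl identifier, and reads shared with near-identical copies of genes such as GAPDH, PGK1 or LDHA may be split between lines. Estimated counts were rounded, filtered with filterByExpr (minimum count 10, minimum total 15), scaled by TMM and tested with edgeR 4.0.16 (quasi-likelihood, two-sided, Benjamini-Hochberg over all genes) in R 4.3.3, within each zone or over all 16 samples for contrasts of zones. A gene was called at an unadjusted p of at most 0.05, and the stricter call (adjusted p of at most 0.05, fold change of 2) is given beside it. The methods of the study name RUVSeq without its factors, so no factor entered the fits. CPM per sample were scaled by TMM over all 16 samples. Isoform ratios were tested by exact permutation (70 divisions). The deviations of the samples of 1 pig correlated at 0.354 to 0.692 over 14278 genes, and since both come from the same animal the pig pairs the zones. Alternatives were DESeq2 1.42.0, upper-quartile scaling, no filter, 1 factor of unwanted variation from 5000 control genes, sex as a covariate, limma 3.58.1 on log2(TPM + 1) or log2(TPM + 0.1), the pig as a block and leaving out each sample. The border zone interaction with sex and its limma fits, and those of the scar zone, were added after the data were seen. The edgeR and DESeq2 fits were also run on simulated counts, and the outcome is not reported here. Counting limits precision only for low genes, since 3 counts were 0.0612 to 0.194 CPM. The members, the lists and the tests were chosen with earlier results of these data known. Genes named with values for every sample were the 8 of the isoform pairs and, in each zone, those called, filled by smallest p to at least 8, with those called in the interaction with sex named after their values were seen. An item of the wider pathway list is not reported here.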

Additional observations from a re-analysis of the deposited data

Results flagged for a closer look

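Among 172 groups of 4 samples of single genes and ratios, 15 held a sample far from the other 3 by Dixon's test, where chance gives about 1 in 20. Of these, 6 were the border zone sample of male IR pig 9, which stood high for HK1 (165 TPM), ALDOA (2165 TPM), GAPDH (7690 TPM), ENO3 (2168 TPM), PGM1 (171 TPM) and the PGAM2 to PGAM1 ratio (0.806). The others were LDHA in the scar zone of IR pig 9 (85.4 TPM, low), ENO3 in the scar zone of IR pig 11 (1383 TPM, low), the LDHB line in the border zone of IR pig 11 (0.538 TPM, high), PKM and SLC16A3 in the border zone of IR pig 2 (1121 and 9.22 TPM, high), ALDOA in the scar zone of sham pig 4 (2085 TPM, high), SLC16A3 in the scar zone of sham pig 13 (6.17 TPM, high), PFKFB2 in the border zone of sham pig 13 (21.3 TPM, high) and PDK2 in the border zone of sham pig 12 (43.1 TPM, low).

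The IR effect on LDHD differed between zones by −0.91 on the log2 scale. Between sexes in the scar zone (males minus females) the IR effect differed by −1.31 for SLC2A4, −3.34 for HK2, −1.51 for ALDOC, −0.68 for PGK1, −0.88 for PGAM1, −3.14 for SLC16A3, −1.14 for MPC1, −0.76 for MPC2, −0.57 for PDHA1, −0.73 for PDHB, −0.74 for PYGB and −0.74 for GBE1, each by the interaction term of edgeR at an unadjusted p under 0.05. In the border zone it differed by −2.77 for HK2, −1.46 for ALDOC, −2.04 for SLC16A3, 0.77 for PGM1, 0.72 for GAPDH and 0.69 for ALDOA.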

How the results depend on the processing

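The scar zone count of 3 called genes became 1 with upper-quartile scaling and 1 in each limma fit on TPM (pseudocount 1, pseudocount 0.1, and no filter), 7 with 1 factor of unwanted variation, 6 with sex as a covariate and 0 at an adjusted p of 0.05 with a fold change of 2. Leaving out single samples gave 1 to 7 calls, with 7 without IR pig 2 and 1 without sham pig 4, sham pig 5 or IR pig 11. The share of all genes called in either direction moved too, from 11.2% to 16.8% with 1 factor, 15.8% with sex, 8.10% in limma on TPM with pseudocount 1, 18.2% without IR pig 2, and 8.23%, 5.61% and 5.65% without sham pig 4, sham pig 5 or IR pig 11, whereas with upper-quartile scaling it was 11.1%. The border zone count of 0 became 2 in DESeq2, 1, 1 and 2 in the limma fits on TPM (pseudocount 1, pseudocount 0.1, and no filter), and 0 to 2 with single samples left out, with 2 without IR pig 2 or IR pig 9, where 4.35% of all genes were called in DESeq2, 6.20% without pig 2 and 6.94% without pig 9, against 3.78%. For the departure of the scar zone effect from the border zone effect, the pig as a block gave 3 calls in place of 1. Between zones of IR pigs the block gave 11 calls in place of 3, and leaving out pigs gave 1 to 5, with 5 without pig 2 or 14 (9.04% and 9.44% of all genes) and 1 without pig 9 or 11 (2.97% and 2.98%), against 6.91%. Between zones of sham pigs the set had 0 calls with and without the block, where the share of all genes rose from 0.420% to 2.75%. The sex interaction of the scar zone gave 7 calls in limma on TPM (4 lower and 3 higher) in place of 12, and 8 to 15 with single samples left out, with 15 without IR pig 11 (16.7% of all genes) and 8 without sham pig 4 (13.6%), against 18.7%. Its count of 1 gene at an adjusted p of 0.05 with a fold change of 2 was 4 in DESeq2 (5.05% of all genes), 1 in limma on TPM (3.56%), and 0 in 6 of 8 fits with single samples left out, where 0.00705% to 0.969% of all genes passed. That of the border zone gave 6 calls (3 higher and 3 lower), 4 in limma on TPM (0 higher and 4 lower), and 2 to 8 with single samples left out, with 3 without sham pig 4, 2 without sham pig 12, 4 without sham pig 13 or IR pig 14 and 8 without IR pig 11, where 4.70%, 4.14%, 4.99%, 9.49% and 8.99% of all genes were called, against 6.89%. The border zone ratio differences, near 0, changed sign when pigs were left out, between −0.26 and 0.14 for PFKM to PFKP and between −0.52 and 0.13 for PGAM2 to PGAM1. The cause of these changes was not tested. In TPM the median of all genes in the scar zone comparison rose to 0.15 on the log2 scale, against 0.03 in scaled counts, and that of the set to 0.07, against −0.09. The isoform ratio differences other than those of PFKM to PFKP and PGAM2 to PGAM1 in the border zone kept their sign in the alternatives run. For genes under a few CPM, such as PFKFB1 and the LDHB line, how small a fold change could be detected was not tested.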
